A study of Mus musculus with 2 samples.

Results

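The mitosis genes described here are 35 genes, chosen by symbol, that act between entry into mitosis and the separation of the daughter cells. All 35 were found among the 32285 genes of the files, each as 1 row. They were followed through endothelial, mural, microglial and progenitor cells of the mouse retina at postnatal day 6, with postmitotic neurons of the same libraries as the background. The study asked what loss of the BMP receptor ALK1 (gene Acvrl1) in endothelium does to single retinal cells. There was 1 library per genotype, so no test between genotypes was possible from these data, and every interval below covers counting error only (95%).

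The control library came from mice with floxed Alk1 alleles and no recombinase (Alk1 f/f), and the library labelled Alk1 ECKO from mice with the same floxed alleles and an inducible Cre under the endothelial Cdh5 promoter (Alk1 f/f Cdh5 CreERT2). Both genotypes thus carry the floxed alleles. The labels give neither the induction, the deleted exons nor the number of animals. Both retinal suspensions were enriched for endothelium with beads against CD31, so the numbers of cells of each class reflect that enrichment too. Levels are given as CPM, the UMIs of a gene relative to all UMIs of its class in that library, which carry no length term. The targeted Acvrl1 had a level of 115 CPM (109 to 122) in endothelial cells of the control, and of 117 CPM (114 to 120) in those of Alk1 ECKO. These UMIs come from the 3′ end of the transcript, and with the deleted exons not given they do not check the genotype.

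The files hold 8739 control barcodes with a median of 3707 UMIs and 5308 Alk1 ECKO barcodes with a median of 2564.5 UMIs, and 20 barcode sequences occur in both libraries. After filtering, 7409 control and 4093 Alk1 ECKO cells were retained, 14 of whose barcode sequences occur in both. The libraries differed in makeup: endothelial cells were 4.04% of retained control cells and 29.7% of Alk1 ECKO ones, and rods 33.4% and 9.24%. In Alk1 ECKO 1484 retained barcodes, against 43 of the control, fell into clusters with a median mitochondrial share under 1%, and these were set aside. The defining markers of each class (Pecam1, Cdh5, Cldn5 and Kdr; Pdgfrb, Rgs5, Kcnj8 and Acta2; Cx3cr1, Csf1r, C1qa and P2ry12) were present in the class they name, summing to 5043 and 3760 CPM in control and Alk1 ECKO endothelial cells, 12089 and 7219 CPM in mural cells, and 9854 and 10525 CPM in microglia. Endothelial cells held the mural markers at 40.6 CPM (control) and 219 CPM (Alk1 ECKO), and the erythroid markers at 156 and 279 CPM. The part of these other cell types in the results was not tested.

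Cells enter mitosis when the kinase CDK1, bound by cyclins A and B, becomes active. Condensed chromosomes are then caught at their kinetochores by spindle microtubules, and the spindle checkpoint holds back the anaphase-promoting complex until each chromosome is attached. Most genes of this programme are transcribed in the G2 and M phases and kept silent in resting cells, largely through CHR and CCAAT elements in their promoters bound by the MuvB complexes and by NF-Y. In the retina of the first postnatal week the vascular plexus is still spreading and late progenitors still divide, while rods, cones, bipolar and amacrine cells do not.

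The promoters show what the members share before any count is read. RefSeq promoters (GRCm38.p6) matched 31 of the 35 members with 34 start sites. Within the 250 bases before the start, on either strand, CCAAT was found in 82.4% of the 34 member promoters and in 33.8% of all 32851 RefSeq promoters. The CHR letters (TTTGAA or TTCGAA) were found in 41.2% and 17.1%, and both together in 38.2% and 6.02%. The E2F letters (the word TTTGGCG, the word TTTCGCG, and also GCGGGAA) were found in 5.88% of member promoters, against 5.58% of all promoters and 38.8% of the promoters of a list of DNA replication genes. CCAAT was also found in 61.2% of these replication promoters and in 63.1% of the promoters of a list of other mitosis genes. The CHR letters were found in 17.9% and 40.5% of them. High shares of these letters are thus not particular to the members. None of these words contains another, although CHR and CCAAT letters that adjoin can share bases. These are matches of letters and do not show that a factor binds. The following windows, 5′ to 3′ on the strand of the gene with CHR and CCAAT letters in capitals, are those of the members named by role below that hold both and of whose window at most 30 bases lie inside the annotated gene.
Cdk1 (chr10:69352913-69353004, minus strand, ending at the start site): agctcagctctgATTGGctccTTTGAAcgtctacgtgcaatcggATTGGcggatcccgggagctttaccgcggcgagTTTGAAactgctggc
Top2a (chr11:99024195-99024350, minus strand, ending 5 bases before the start site): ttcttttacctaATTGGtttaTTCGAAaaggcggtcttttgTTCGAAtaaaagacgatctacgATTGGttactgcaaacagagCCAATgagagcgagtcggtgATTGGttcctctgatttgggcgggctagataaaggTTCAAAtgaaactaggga
Prc1 (chr7:80294402-80294463, plus strand, ending 12 bases before the start site): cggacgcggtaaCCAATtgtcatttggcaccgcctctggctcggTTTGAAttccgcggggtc
Ube2c (chr2:164769762-164769917, plus strand, ending 11 bases before the start site): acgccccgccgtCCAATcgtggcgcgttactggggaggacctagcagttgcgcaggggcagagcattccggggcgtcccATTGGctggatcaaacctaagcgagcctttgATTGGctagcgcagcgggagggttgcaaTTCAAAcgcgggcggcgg
In these 4 windows the CHR letters nearest to the start end 9, 17, 24 and 23 bases before it, in the order printed, with CCAAT letters farther upstream.

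Among the named classes of the question, endothelial cells of both libraries and mural cells of the Alk1 ECKO library held mitosis transcripts most often. A smaller share did in the class that joins Müller glia and progenitors, which leaves out a histone-led cluster described below. Microglia stayed near the level of neurons at 3000 UMIs. Because classes differed in depth, each cell was thinned to 3000 UMIs, and a cell was counted as holding mitosis transcripts with UMIs of at least 3 different members. This was so in 103 of 294 control endothelial cells (35%, 29.6 to 40.8) and, in the Alk1 ECKO library, in 446 of 1071 (41.6%, 38.7 to 44.7). Both shares lay above those of neurons with no overlap of intervals, and their own intervals overlapped each other. With cells of at most 5% mitochondrial UMIs the order turned round, at 44.5% (37.5 to 51.7) in control and 43.0% (39.9 to 46.0) in Alk1 ECKO. Mural cells, the pericytes and smooth muscle cells around the vessels, gave 62 of 143 in Alk1 ECKO (43.4%, 35.1 to 51.9) and 1 of 11 in control (9.09%, 0.23 to 41.3). The control interval is too wide to place mural cells of that library. Microglia or macrophages gave 1 of 50 in control (2.0%, 0.05 to 10.7) and 4 of 192 in Alk1 ECKO (2.08%, 0.57 to 5.25). Cells with Müller glia or progenitor markers gave 66 of 628 in control (10.5%, 8.22 to 13.2) and 9 of 149 in Alk1 ECKO (6.04%, 2.8 to 11.2). A further cluster of 95 control and 5 Alk1 ECKO cells, led by replication histone genes and not named by any marker list, is described with the progenitors below. All of its cells at depth, 93 in control and 5 in Alk1 ECKO, held at least 3 members. The shares of the Müller glia or progenitor class thus do not stand for progenitors alone.

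The background was read from rods, cones, bipolar and amacrine cells together, which do not divide. It can hold free RNA, remaining doublets and misassigned cells, which were not told apart. There 22 of 2000 control cells (1.1%, 0.69 to 1.66) and 2 of 216 Alk1 ECKO cells (0.926%, 0.11 to 3.3) held at least 3 members. Before thinning these neurons had median depths of 5896.5 UMIs (control) and 4908 UMIs (Alk1 ECKO). For endothelial cells these medians were 20229 and 21332 UMIs, and for microglia 12948 and 14137.5 UMIs. Neurogenic precursors, cells with Olig2, Dll1 and Gadd45g that leave the cycle to become neurons, gave 15 of 337 in control (4.45%, 2.51 to 7.24) and 1 of 87 in Alk1 ECKO (1.15%, 0.03 to 6.24). Thinning left out 5 control and 145 Alk1 ECKO endothelial cells, 0 and 6 mural cells, no microglia, 55 and 30 Müller glia or progenitors, and 1430 and 273 rods. Without thinning, 63.2% of control and 72.1% of Alk1 ECKO endothelial cells, 36.4% and 61.1% of mural cells, 24.0% and 25.0% of microglia, 16.1% and 9.5% of Müller glia or progenitors, and 5.17% and 1.85% of rods reached 3 members. Control cones, which are postmitotic and had a median of 15846 UMIs, reached 33.3% without thinning and 0.524% with it.

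**Figure D1:**
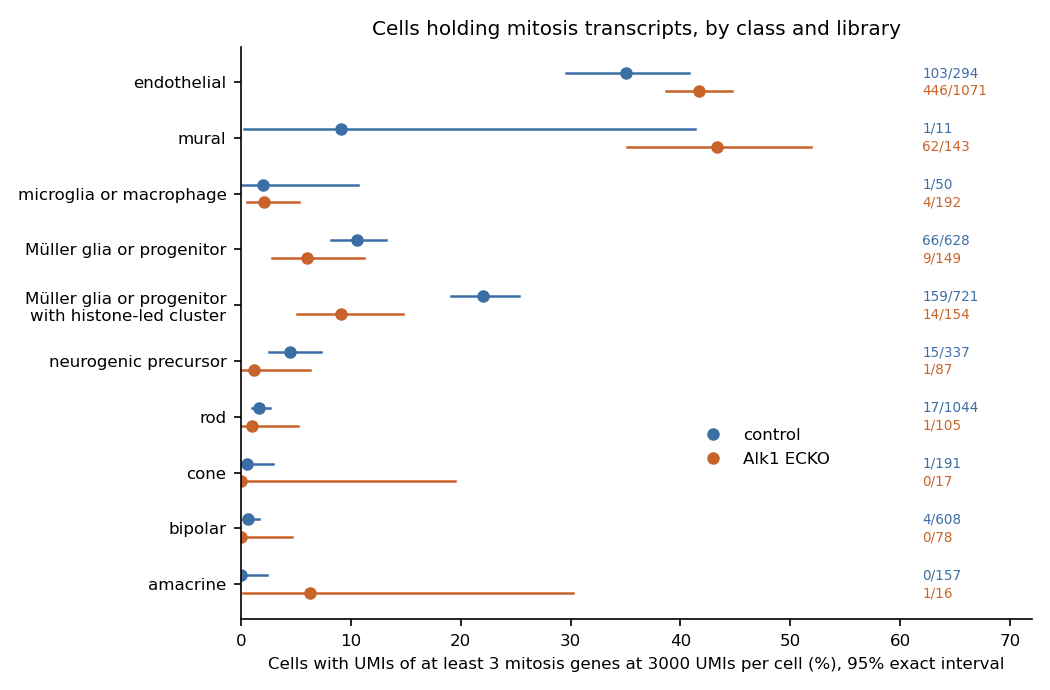
Share of cells (x axis, percent, with exact 95% intervals) that hold UMIs of at least 3 of the 35 mitosis genes after thinning to 3000 UMIs, by class (y axis) and library, with cells counted at the right. Endothelial cells of both libraries (35% and 41.6%) and Alk1 ECKO mural cells (43.4%) lie to the right of rods and microglia, which stay at or under 2.08%.

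Within endothelial cells the members were not spread evenly but held together by some cells and absent from others. In control, 32.0% of endothelial cells held no member and 12.2% held 12 or more, and in Alk1 ECKO 28.7% and 10.8%. The variance of the member UMIs per cell was 15.4 times their mean in both libraries, where independent counting gives a ratio near 1; in control microglia it was 0.96 and in control rods 2.31. Positive cells held a median of 9 different members in control and 7 in Alk1 ECKO. Each member was then read in cells chosen by the others alone. Among control endothelial cells with at least 3 other members, the median member was found in 26.5% of cells (8.74 to 56.4 over the 35 members), and among cells with none of the others in 0%, with 18 members at 0. In Alk1 ECKO endothelial cells the medians were 19.9% (4.95 to 48.4) and 0.32%. Mki67, for example, was found in 56 of 101 control endothelial cells with at least 3 other members (55.4%, 45.2 to 65.3) and in 3 of 97 with none (3.09%, 0.64 to 8.77).

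**Figure D2:**
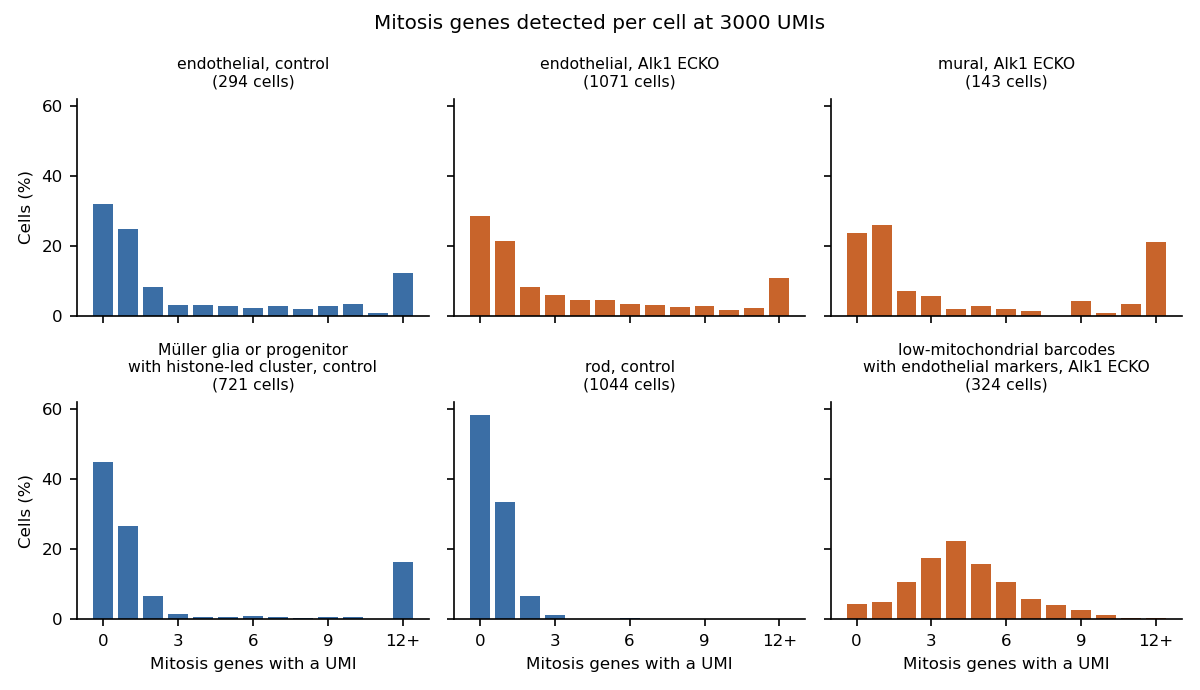
Percent of cells (y axis) by the number of mitosis genes with a UMI at 3000 UMIs per cell (x axis, last bar 12 or more) in 6 groups of cells. Endothelial, mural and progenitor cells show a peak at 0 or 1 gene and a tail that reaches the last bar. Rods show the first peak only, and the low-mitochondrial barcodes show 1 broad peak near 4 genes. The last bar pools all counts of 12 or more, so its height does not show a separate group of cells.

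By role, the member found in most endothelial cells over both libraries is named in each group. Cdk1 (ENSMUSG00000019942, chromosome 10, 69335146 to 69352938 in mm10), the kinase that drives entry into mitosis, was found in 52 of 294 control endothelial cells (17.7%) and 248 of 1071 Alk1 ECKO endothelial cells (23.2%, 20.7 to 25.8). In mural cells it was found in 3 of 11 and 36 of 143 cells (25.2%), in microglia in 4.0% and 3.12%, and in control rods in 0.575%. Of its partners, Cks2, a small CDK-binding protein, stood at 20.7% and 21.6% of endothelial cells, and the cyclins Ccna2, Ccnb1 and Ccnb2 between 6.91% and 13.9%. Top2a (ENSMUSG00000020914, chromosome 11, 98992943 to 99024189), the topoisomerase that disentangles sister chromatids, was found in 22.8% of control and 21.3% of Alk1 ECKO endothelial cells, 0 of 11 and 33 of 143 mural cells, and 1.34% of control rods. Its shares in the 2 endothelial libraries differed by less than their intervals.

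Among kinetochore genes, Cenpa (ENSMUSG00000029177, chromosome 5, 30666777 to 30674830), the histone H3 variant of centromeres, was found in 20.4% of control and 21.4% of Alk1 ECKO endothelial cells and in 27.3% of Alk1 ECKO mural cells. Its share was 6.0% and 6.77% in microglia and 2.11% and 4.76% in rods, with intervals that overlapped within each library. The chromosomal passenger Birc5 (survivin, ENSMUSG00000017716, chromosome 11, 117849251 to 117855743) was found in 19.7% and 20.9% of endothelial cells, 28.7% of Alk1 ECKO mural cells and 0.287% of control rods. Its complex partners Aurkb, the kinase, and Cdca8, borealin, stood at 6.46% and 16% in control endothelial cells and at 8.03% and 15.1% in Alk1 ECKO. Of the spindle kinases and motors, Tpx2 (ENSMUSG00000027469, chromosome 2, 152847964 to 152895321), which activates Aurora A on the spindle, was found in 17.3% of control and 13.7% of Alk1 ECKO endothelial cells. The kinases Aurka and Plk1 were found in 4.39% to 8.5% of endothelial cells.

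The midzone and cytokinesis gene Prc1 (ENSMUSG00000038943, chromosome 7, 80294450 to 80316259), which bundles microtubules between the separating chromosomes, was found in 10.2% of control and 15.5% of Alk1 ECKO endothelial cells and in 95.7% of the control cells of the histone-led cluster. Ube2c (ENSMUSG00000001403, chromosome 2, 164769898 to 164778822), the ubiquitin-conjugating enzyme of the anaphase-promoting complex, was found in 32 of 294 control endothelial cells (10.9%, 7.56 to 15.02) and, in Alk1 ECKO, in 228 of 1071 (21.3%, 18.9 to 23.9). This was a wider gap than for the members above, and the intervals did not overlap. The spindle checkpoint gene Bub3 (ENSMUSG00000066979, chromosome 7, 131560222 to 131571895) was the 1 member held as often by rods as by endothelium. It was found in 27.9% and 29.0% of endothelial cells, 24.0% and 19.8% of microglia, and 25.2% and 24.8% of rods. In control rods the next highest member reached 4.69% of cells. Bub3 was also the member found most often, in 24.8% of control and 26.6% of Alk1 ECKO endothelial cells, where no other member was held. It had 97.5 CPM in control rods and 105.2 CPM in control endothelial cells, and at most 1 of the 3 members that a cell needed could come from it.

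**Figure D3:**
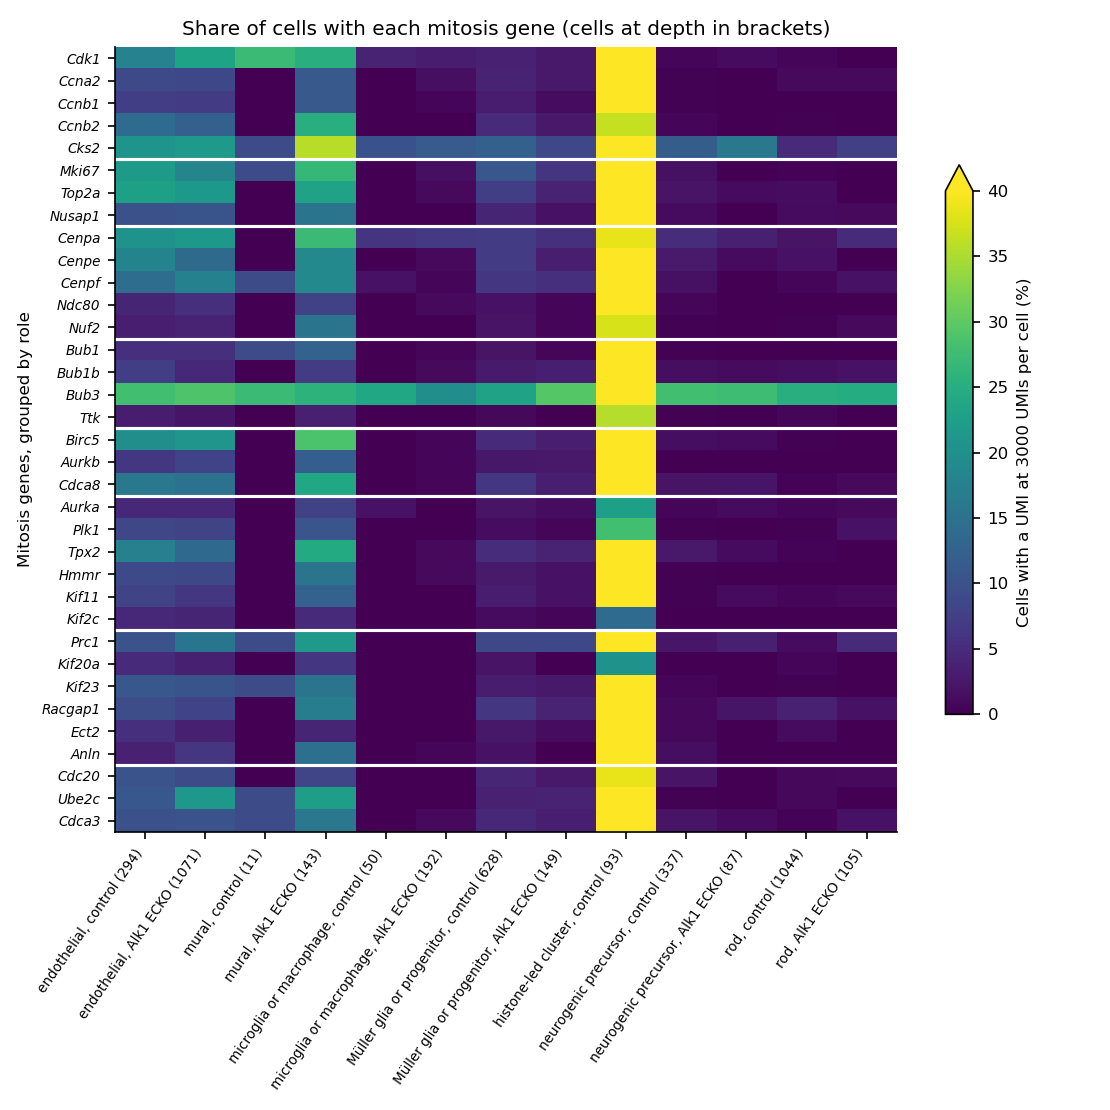
Share of cells with a UMI of each mitosis gene at 3000 UMIs per cell (colour, percent, values above 40 drawn in the top colour) for 35 genes grouped by role (rows, separated by white lines) and classes by library (columns, cells in brackets). Bub3 is the row that keeps a like colour in each column but the histone-led cluster (19.8% to 29.5%), while most other rows are dark in microglia, neurogenic precursors and rods.

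Between genotypes, the summed level of the 35 members in endothelial cells was 2544 CPM in the control library against 2369 CPM in the other. By the rule of a 1.5-fold difference, 1 of 35 members was higher in Alk1 ECKO and 4 were lower. Of all 12831 genes with at least 30 UMIs, 7.39% were higher and 21% lower by the same rule, so neither count of members exceeded the background. The median log2 ratio was -0.29 over the members and -0.21 over all genes. The 5 members called were Ube2c on the higher side and Mki67, Kif20a, Ttk and Bub1b on the lower side.

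Ube2c had 137 CPM (129.9 to 144) in the control library against 212 CPM (208 to 216) in the other, a log2 ratio of 0.63 (0.55 to 0.71). Cdk1 followed with 118 and 151 CPM (0.36, 0.27 to 0.45) and Cenpa with 107 and 137 CPM (0.35, 0.25 to 0.44), neither past 1.5-fold. Mki67, the Ki-67 protein that coats mitotic chromosomes and the usual marker of cycling cells, had 209 CPM (201 to 218) in the control library against 114 CPM (111 to 117) in Alk1 ECKO cells, the lowest ratio of the 35 (-0.87, -0.95 to -0.80). Kif20a, a midzone kinesin, was at 19.6 and 11.6 CPM (-0.75, -0.99 to -0.51), and Ttk, the checkpoint kinase MPS1, at 15.98 and 10.4 CPM (-0.63, -0.88 to -0.36). By role, the group of Mki67, Top2a and Nusap1 had the lowest median (-0.58), and Ube2c, Cdc20 and Cdca3 the highest (0.23). Top2a was at 237 and 159 CPM (-0.58, -0.65 to -0.51), while its share of cells was 22.8% and 21.3%.

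The member ratios moved with transcript length, as did those of coding genes at large, and the part of length in them was not tested. Over the 35 members Spearman's rho between the longest coding transcript and the endothelial ratio was -0.49, and over 11850 coding genes it was -0.42. Mki67 and Cenpe have long transcripts (10061 and 7910 bases), and Ube2c and Cenpa short ones (2191 and 1466 bases). Cenpf, a kinetochore protein with the longest of the 35 (11130 bases), went against this pattern with a log2 ratio of 0.08. Both correlations are descriptions over genes of the same 2 libraries and carry no test. Relative to the median of all genes, Mki67 was at -0.67 and Ube2c at 0.84, and 1 member was lower and 1 higher. Thinning each cell to 3000 UMIs brought the median of the members to -0.026, with 2 members higher and 4 lower, beside 9.43% and 13.01% of all genes.

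**Figure D4:**
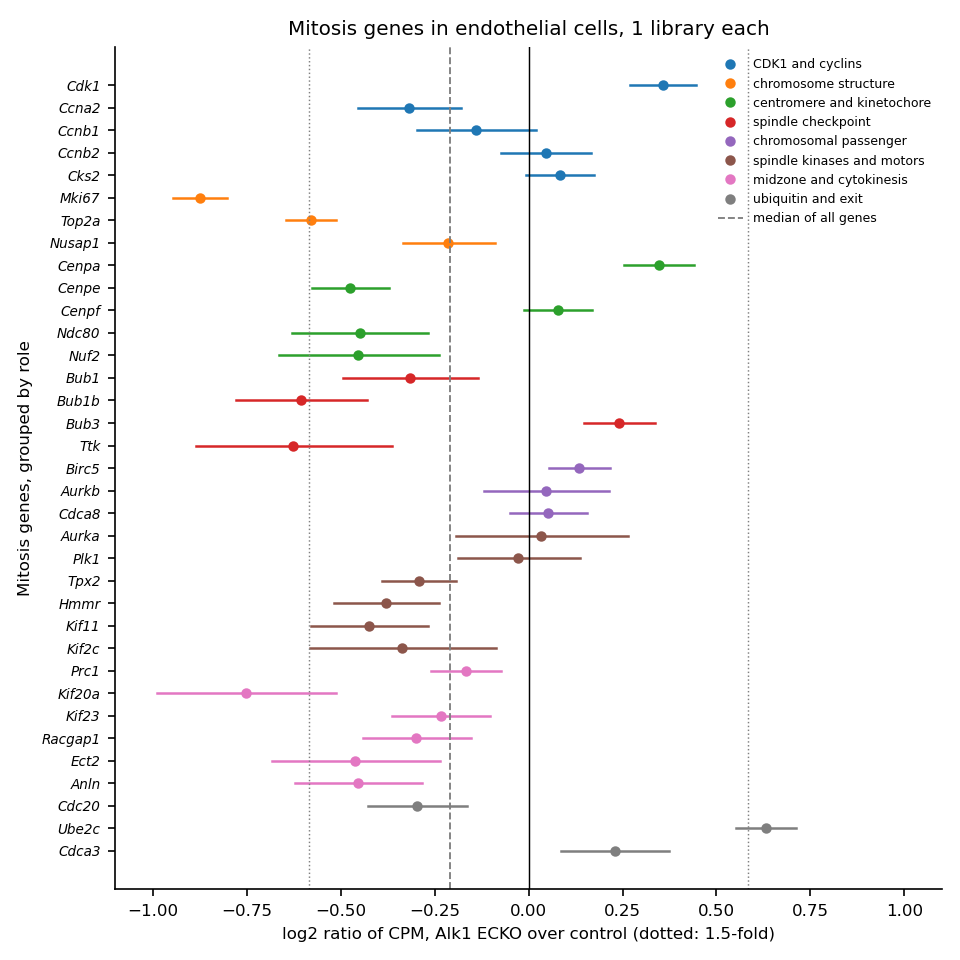
log2 ratio of CPM in endothelial cells, Alk1 ECKO over control (x axis, with exact 95% counting intervals), for the 35 mitosis genes grouped by role (y axis, colours). Ube2c lies beyond the upper 1.5-fold line and Mki67 farthest beyond the lower one, and most members lie between these lines on either side of the median of all genes (dashed).

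Endothelial clusters differed more from each other than the libraries did. Clusters were made without the 217 genes of the cycle lists, members included. Replication histones and further cycle genes outside these lists were still used. Cells may thus be grouped partly by cycle genes, and the part of this in the cluster shares was not tested. In the cluster led by Apln, Esm1, Igfbp3 and Angpt2, genes of sprouting tip cells, 70 of 82 control cells (85.4%, 75.8 to 92.2) and 241 of 428 Alk1 ECKO cells (56.3%, 51.5 to 61.1) held at least 3 members. In the cluster led by Cd93 and Slc38a5 it was 31 of 207 (15%, 10.4 to 20.6) and 94 of 468 (20.1%, 16.6 to 24.0). Of these clusters, the one led by Apln and Esm1 had the higher share in both libraries, and within it the Alk1 ECKO share was the lower one. It held 83 control cells, while the sub-cluster named tip below held 10, so its share is not read as that of tip cells. Counting tip genes per cell could not set tip cells apart. Of 294 control cells 236, and of 1071 Alk1 ECKO cells 1042, held 3 or more of 18 tip genes. Among these 35.6% and 41.6% held at least 3 members. With 2 tip genes it was 15 of 49 control cells (30.6%, 18.3 to 45.4) and 10 of 25 Alk1 ECKO cells (40%, 21.1 to 61.3). The cluster led by Cd93 and Prnd was almost confined to Alk1 ECKO, with 45 of 89 cells (50.6%, 39.8 to 61.3) there and 1 of 3 in control.

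The share also differed between finer endothelial states. The sub-cluster named tip by its markers gave 7 of 10 control cells (70.0%, 34.8 to 93.3) and 107 of 252 Alk1 ECKO cells (42.5%, 36.3 to 48.8). With further cycle genes left out of clustering, the tip sub-cluster gave 1 of 3 (33.3%, 0.84 to 90.6) and 38 of 112 (33.9%, 25.2 to 43.5), so its share depends on that choice. The sub-cluster with capillary or barrier markers such as Slco1c1 and Spock2 gave 7 of 68 (10.3%, 4.24 to 20.1) and 1 of 18 (5.56%, 0.14 to 27.3). The arterial sub-cluster, led by Cxcl12 and Cdkn1c, gave 3 of 21 (14.3%, 3.05 to 36.3) and 0 of 20, which allows up to 16.8%. Counted over all control endothelial cells, 22 of 44 cells without a UMI of any of 16 arterial genes held at least 3 members (50%, 34.6 to 65.4), and 21 of 107 cells with 3 or more arterial genes did (19.6%, 12.6 to 28.4). In Alk1 ECKO it was 75 of 138 (54.3%, 45.7 to 62.8) and 148 of 402 (36.8%, 32.1 to 41.7), or 82 of 318 (25.8%, 21.1 to 31.0) without the cluster led by Aqp1 and Mal. Over all Alk1 ECKO cells the share with 2 arterial genes, 35.9%, was no higher than that with 3 or more. Lower shares in cells with more genes of a list were not seen with arterial genes alone: with capillary or barrier genes the Alk1 ECKO share was 56.8% with 2 genes and 39.9% with 3 or more, and with venous genes the control share was 42.5% with 1 gene and 32.9% with 3 or more. A pair of sub-clusters, of 4 control and 102 Alk1 ECKO cells, were led by mural genes: 18 of 63 Alk1 ECKO cells led by Rgs5 and Gucy1a1 (28.6%, 17.9 to 41.3) and 29 of 34 led by Fabp5 and Acta2 (85.3%, 68.9 to 95.05), the latter with a median of 104522 UMIs, held at least 3 members. Without both, an alternative chosen after seeing the data, the endothelial shares were 35.2% (29.7 to 41.0) in control and 41.0% (37.9 to 44.1) in Alk1 ECKO. A sub-cluster of 48 control and 118 Alk1 ECKO cells remained led by replication histones, and 87.2% and 96.6% of its cells at depth held at least 3 members although the listed genes had been left out of clustering. With the makeup of the 6 sub-clusters that had at least 10 cells in each library set equal, the shares were 53.7% in control and 47.2% in Alk1 ECKO. These sub-clusters held 281 of 294 control cells at depth but only 451 of 1071 Alk1 ECKO cells. They include the sub-cluster led by replication histones, and the tip sub-cluster with its 10 control cells. They also include the largest sub-cluster of the control, led by AY036118 and Gm42418, of 116 control and 26 Alk1 ECKO cells. Its leading genes hold 12 cycle genes, the member Cdc20 among them. In it 38 of 114 control cells (33.3%, 24.8 to 42.8) and 10 of 19 Alk1 ECKO cells (52.6%, 28.9 to 75.6) held at least 3 members. The order of the shares at equal makeup thus does not stand for all endothelial cells.

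**Figure D5:**
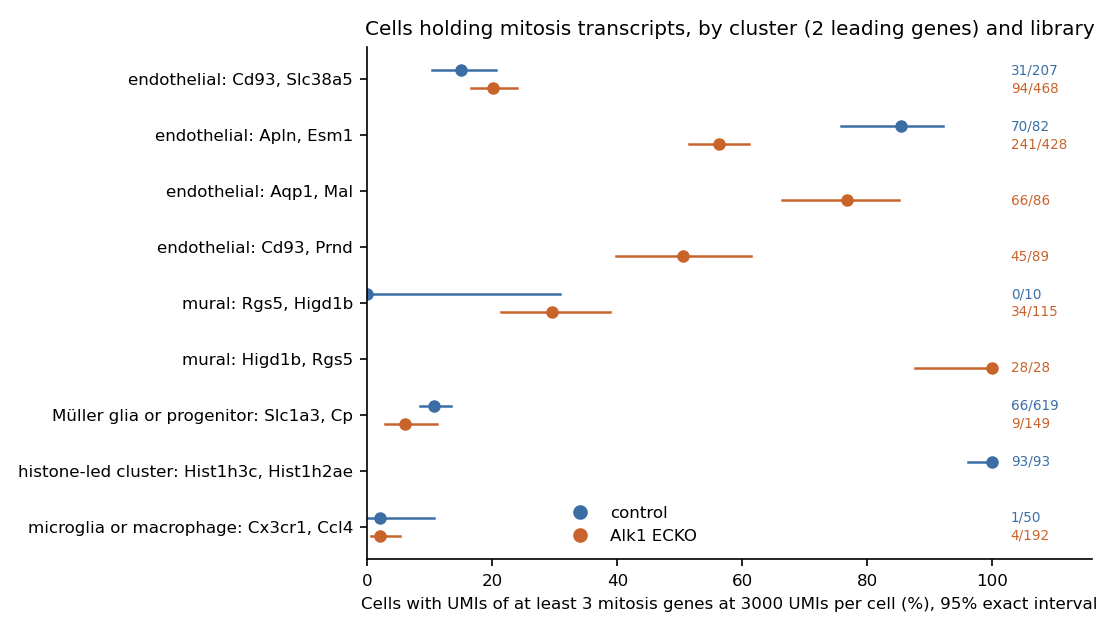
Share of cells with at least 3 mitosis genes at 3000 UMIs (x axis, percent, with exact 95% intervals) by cluster, named by class and 2 leading genes (y axis), and library, for clusters with at least 10 cells at depth in that library. In the endothelial cluster led by Apln and Esm1 the control share (85.4%) lies above that of Alk1 ECKO (56.3%), while in the cluster led by Cd93 and Slc38a5 the shares are 15% and 20.1%. Replication histones were still used to make these clusters.

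One Alk1 ECKO endothelial cluster reached its share in another manner. The cluster led by Aqp1, Mal, Ltbp4 and Ptprb held 194 Alk1 ECKO and 2 control cells, with a median of 2455.5 UMIs, and 66 of its 86 cells at depth (76.7%, 66.4 to 85.2) held at least 3 members. None of these 86 cells held 12 or more, and the variance of member UMIs was 2.20 times the mean, against 16.4 in the other Alk1 ECKO endothelial cells. Without it, 102 of 292 control cells (34.9%, 29.5 to 40.7) and 380 of 985 Alk1 ECKO cells (38.6%, 35.5 to 41.7) held at least 3 members. The endothelial shares of the 2 libraries then differed by less than before, with overlapping intervals.

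Mural cells of the Alk1 ECKO library held the members at shares near those of endothelium. In the cluster led by Rgs5, Higd1b, Des and Kcnj8, 34 of 115 Alk1 ECKO cells (29.6%, 21.4 to 38.8) and 0 of 10 control cells (up to 30.8%) held at least 3 members. In the cluster led by Higd1b, Rgs5, Tpm2 and Abcc9, of a median depth of 28684 UMIs against 11327 in the former, it was all 28 Alk1 ECKO cells and the 1 control cell. Positive Alk1 ECKO mural cells held a median of 11 members, and the variance of member UMIs was 27.3 times the mean. The member found in most of these 143 cells was Cks2 (35.7%), followed by Birc5 (28.7%), Cenpa (27.3%) and Mki67 (26.6%). The median member was found in 35% of Alk1 ECKO mural cells with at least 3 others (8.06 to 64.4) and in 0% of those with none.

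The mural ratios rest on 11 control cells with 80 member UMIs, against 11513 in Alk1 ECKO. Of the 35 members, 9 had 0 control UMIs and 21 had 1 to 3. All 35 reached 30 UMIs through the Alk1 ECKO library alone, and the control values rest on few UMIs. By the 1.5-fold rule 34 were higher and 0 lower, with 22.5% of all 7415 genes higher and 21.9% lower, and the remaining member, Ttk, had 0 control UMIs and 45 in Alk1 ECKO. Bub3 and Top2a had the most control UMIs, 12 and 11. Top2a had 76.2 CPM in the control library against 340.4 CPM (a log2 ratio of 2.16, 1.31 to 3.17). Endothelial markers in Alk1 ECKO mural cells summed to 27.5 CPM, and the mural markers to 7219 CPM.

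Microglia held few member UMIs, 105 and 573. In control, 18 of 35 members had 0 UMIs over the 50 cells, and in Alk1 ECKO 5 had 0 UMIs over 192 cells. Only Bub3, Cks2, Cenpa and Cdk1 reached 30 UMIs over both libraries. Of these 4, Cdk1 was past 1.5-fold, with 10.3 CPM in the control library against 17.0 CPM (0.72, -0.42 to 2.11), and its interval included 0. Of all 7512 genes tested in microglia, 7.15% were higher and 19.2% lower. Top2a, the chromatid topoisomerase, had 1 and 21 UMIs, and Mki67 had 1 and 20. The 4 Alk1 ECKO microglia with at least 3 members held a median of 4.5. At 5000 UMIs the share was 0 of 48 in control and 4.17% (1.82 to 8.04) in Alk1 ECKO, and with the low-mitochondrial clusters counted it was 1.72% and 4.65% (2.25 to 8.39). At 3000 UMIs a share above that of the neurons was not detectable.

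Of the progenitors or Müller glia with at least 3 members, 93 of 159 in control and 5 of 14 in Alk1 ECKO lay in a histone-led cluster. This cluster, led by Hist1h3c, Hist1h2ae, Hist1h2ab and Hist1h1b, held 95 control and 5 Alk1 ECKO cells, and all 93 and 5 cells at depth held at least 3 members, with medians of 21 and 18. Its leading genes also include the members Top2a and Mki67, so its full share is not independent of the members. Top2a was found in each of its 93 control cells, Prc1 in 95.7%, Mki67 in 94.6% and Nusap1, a spindle microtubule binder, in 92.5%. It held the Müller glia or progenitor markers at 2843 CPM in control, the mural markers at 1.36 CPM, and of the endothelial markers Kdr, with Pecam1 and Cdh5 at 0 UMIs. When further cycle genes (replication histones and genes of the Cenp, Kif, Cdc, Cdca, Ncap and Mcm families) were left out of clustering as well, an alternative chosen after seeing the data, 94 of its 100 cells joined 1 cluster with 124 cells that had been named Müller glia or progenitor. In that cluster 144 of 189 control cells (76.2%, 69.5 to 82.1) and 14 of 24 Alk1 ECKO cells (58.3%, 36.6 to 77.9) held at least 3 members.

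With the histone-led cluster counted among them, 159 of 721 control progenitors or Müller glia (22.1%, 19.1 to 25.3) and 14 of 154 Alk1 ECKO ones (9.09%, 5.06 to 14.8) held at least 3 members. The intervals do not overlap, but each rests on 1 library, and the genotype and the library cannot be told apart. The class was also made up differently: a sub-cluster led by Bmpr1b, Slc16a3 and Anxa2 held 80 of the 184 Alk1 ECKO cells and 9 of the 778 control cells, and 2 of its 66 Alk1 ECKO cells at depth (3.03%, 0.37 to 10.5) held at least 3 members. The rest of the class, by the clustering without the further cycle genes, gave 11 of 527 in control (2.09%, 1.05 to 3.7) and 0 of 130 in Alk1 ECKO, which allows up to 2.8%. In sub-clusters of the 778 control and 184 Alk1 ECKO cells, made without the further cycle genes too, 1 of 308 control cells led by Adamts18, Slitrk2 and Cyp26a1 held at least 3 members (0.325%, 0.01 to 1.8), against 23 of 203 (11.3%, 7.32 to 16.5) led by Optc, Crhbp and Dll1, where Alk1 ECKO gave 2 of 32 (6.25%, 0.77 to 20.8). The cells led by Lig1, Hells and Ccne2, genes of DNA replication, gave 51 of 75 in control (68.0%, 56.2 to 78.3) and 6 of 6 in Alk1 ECKO (54.1 to 100). Those led by Ube2c, Cenpf and Cdc20 gave 75 of 75 in control and 4 of 4 in Alk1 ECKO. Ube2c, Cenpf and Cdc20 are themselves members, so the share of the cells they lead follows from these leading genes and is no separate result.

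In level, 33 of the 35 members were lower in Alk1 ECKO progenitors or Müller glia when the histone-led cluster was counted, and 0 were higher, with 23.9% of 10441 genes lower and 4.29% higher. These members passed the 30-UMI minimum mainly through the control library, with 18982 member UMIs against 1444 in Alk1 ECKO. Their levels summed to 3696 CPM in the control library against 1477 CPM, and the median log2 ratio was -1.43, against -0.19 over all genes. The 2 members not called were Bub3 (126 and 103 CPM) and Aurkb (54.3 and 40.9 CPM). Top2a was at 421 and 145 CPM (-1.54, -1.79 to -1.29), Mki67 at 323 and 101 CPM (-1.67, -1.98 to -1.38) and Ube2c at 160.4 and 92.1 CPM (-0.80, -1.13 to -0.49). The midzone group was lowest, with a median of -2.09, and in it Anln, the cytokinetic scaffold anillin, had 189 UMIs in control and 2 in Alk1 ECKO (-4.17, -7.22 to -2.30). Without the histone-led cluster, 17 of 34 members tested were lower and 0 higher, with 21.6% of 10084 genes lower and 3.64% higher, and the median was -0.62. There the members had 5753 UMIs in control and 889 in Alk1 ECKO, where 1 member had 0 UMIs and 6 had 1 to 3. In rods, where the members are at background, 10 of 18 tested were lower and 2 higher, with 22% of 11111 genes lower and 5.11% higher. The rod members passed the 30-UMI minimum mainly through the control library, which had 2498 member UMIs against 218.

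A list of 74 DNA replication genes, most of them transcribed in G1 and S phase, did not separate the classes at the same threshold. At 3000 UMIs, 68.7% of control and 70.3% of Alk1 ECKO endothelial cells had at least 3 of its genes, but so did 74.0% of control rods and 83.9% of control bipolar cells. Of the endothelial cells with at least 3 mitosis genes, 98 of 103 in control (95.1%, 89.0 to 98.4) and 414 of 446 in Alk1 ECKO (92.8%, 90.02 to 95.04) also had at least 3 replication genes. As rods reach this level too, no phase was read from it. In endothelial level, 17 of 74 replication genes were lower and 0 higher (median -0.40), and of 95 other mitosis genes 15 were lower and 1 higher (median -0.23). With 21% of all endothelial genes lower and 7.39% higher, both counts lie near or under the background. Among the latter, Kif15, a spindle kinesin, was at 44.4 and 23.7 CPM (-0.91, -1.06 to -0.75), and Tubb4b, a beta-tubulin, at 242 and 402 CPM (0.73, 0.67 to 0.79). Among the former, Brca1, the repair factor, was at 15.9 and 7.45 CPM (-1.09, -1.37 to -0.82).

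Of 7 CDK inhibitors, 2 were higher and 0 lower in Alk1 ECKO endothelial cells, beside 7.39% and 21% of all genes. Cdkn1a, which encodes p21, had 73.7 CPM in the control library against 176 CPM (1.25, 1.15 to 1.36). Cdkn2a was at 1.43 and 5.56 CPM (1.96, 1.21 to 2.82), the control value from 15 UMIs. Of Alk1 ECKO cells with at least 3 mitosis genes, Cdkn2a was found in 2.24% of endothelial and 30.6% of mural cells. The part of mural transcripts in its endothelial ratio was not tested. In Alk1 ECKO, Cdkn1a was found in 141 of 446 endothelial cells with at least 3 mitosis genes (31.6%, 27.3 to 36.2) and in 123 of 307 with none (40.1%, 34.5 to 45.8). In control it was found in 12.6% and 11.7%. The higher Cdkn1a share of Alk1 ECKO was thus present in cells with and without mitosis transcripts. Of 6 G1 genes, beside the same background, 0 were higher and 1 was lower (Ccnd2, 66.6 and 43.9 CPM, -0.60, -0.73 to -0.48), and Ccnd1, cyclin D1, was at 251 and 373 CPM (0.57, 0.51 to 0.63), short of 1.5-fold.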

How the data were processed

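The data are 2 single-cell RNA libraries (10x 3′ v3.1), 1 per genotype, deposited as UMI count matrices. The authors counted reads with Cell Ranger, version 5.0.1 per the file headers and 6.1.1 per the submitters' processing notes, on mm10. Libraries held 54800465 (control) and 62728605 (Alk1 ECKO) UMIs. Filters asked for 1000 or more UMIs, 500 or more genes and a mitochondrial share of 10% or less. Scrublet's automatic threshold marked 0 and 1 cells, so the highest scores were removed at 0.8% per 1000 cells (500 and 144 cells). Cells of both libraries were clustered together with scanpy 1.11.5 and leidenalg 0.10.2 (3000 variable genes, 30 components, 15 neighbours, resolution 1, sub-clusters 0.6), without the 217 cycle-list genes. Classes were named from marker lists. The rules for naming and for setting aside clusters with a median mitochondrial share under 1% were written after the clusters were seen.

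A member's share is the share of cells with a UMI after thinning to 3000 UMIs. Intervals are exact 95% ones (Clopper-Pearson, Poisson and conditional binomial, scipy 1.17.1) and cover counting error only. Ratios are of summed UMIs, Alk1 ECKO over control, for genes with at least 30 UMIs, called past 1.5-fold. Where a gene had a count of 0 in either library, any count of it under 3 was set to a floor of 3 counts over the class for the ratio. The procedures were tested on simulated data. Members and lists were chosen with earlier results of these data known. Named were, per role, the member found in most endothelial cells, the 3 highest and 3 lowest endothelial ratios, Bub3 if highest in rods, and of other lists at most the 2 highest and 2 lowest. Members named beyond these, and the clusters and sub-clusters singled out, were chosen after their values were seen. Alternatives varied depth, members needed, clustering, filters, scaling and the cells of a class.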

Additional observations from a re-analysis of the deposited data

Results flagged for a closer look

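Barcodes set aside from the comparisons of the report, and counted in 1 alternative only, held mitosis transcripts too. In the set-aside clusters with endothelial markers and a low mitochondrial share, 260 of 324 Alk1 ECKO barcodes at 3000 UMIs (80.2%, 75.5 to 84.4) held at least 3 of the 35 mitosis genes, a signal in data outside the main measurement. These clusters held 1361 Alk1 ECKO barcodes with a median of 1853 UMIs and a median mitochondrial share of 0.409%, and 19 control barcodes. The variance of member UMIs was 2.69 times the mean, and 1 of the 324 barcodes held 12 or more members. Ube2c was at 303 CPM against 214 CPM in the other Alk1 ECKO endothelial cells, and Mki67 at 24.8 against 113 CPM. By the sign of the ratio alone, without the 1.5-fold rule, 11 of the 35 members were higher and 24 lower. Of 11715 coding genes, 4390 were higher and 7325 lower by sign. The highest member ratio was that of Aurka, a log2 ratio of 0.57, short of 1.5-fold. Spearman's rho of this ratio with transcript length was -0.68 over the members and -0.63 over the coding genes. Malat1, a nuclear RNA, was at 1708 CPM against 7969 CPM, and Hbb-bs, a globin, at 1247 against 219 CPM. The part of length and of RNA quality in these values was not tested.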

How the results depend on the processing

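The share of cells with at least 3 members moved with depth and with the number of members asked for. In Alk1 ECKO endothelial cells it was 34.7% at 2000 UMIs, 48.7% at 5000 UMIs and 50.6% with the low-mitochondrial clusters counted. Without thinning it was 63.2% and 72.1% in control and Alk1 ECKO endothelial cells, 61.1% in Alk1 ECKO mural cells, 24% and 25% in microglia, and 16.1% in control Müller glia or progenitors. With at least 2 members it was 43.2% and 49.95% in endothelial cells, 6.25% in Alk1 ECKO microglia, and 18.2% and 18.1% in Müller glia or progenitors. With at least 5 it was 28.9% and 31.1% in endothelial cells and 7.96% in control Müller glia or progenitors. Alk1 ECKO microglia were at 4.17% at 5000 UMIs and 4.65% with the low-mitochondrial clusters counted. Control microglia were at 0 under 2000 UMIs, 5000 UMIs, at least 5 members, cycle genes kept in clustering, a mitochondrial share of at most 5%, and cells of at least 5000 UMIs alone. Control Müller glia or progenitors were at 13.9% at 5000 UMIs. With cycle genes kept in clustering, Müller glia or progenitors were at 3.78% and 2.78%, and a mitochondrial share of at most 5% put endothelial cells at 44.5% in control and 43.0% in Alk1 ECKO, which turns their order round. Alternatives chosen after seeing the data gave 38.6% for Alk1 ECKO endothelial cells without the cluster led by Aqp1 and Mal, 22.1% for control progenitors with the histone-led cluster, and 2.09% and 0% for Müller glia or progenitors with further cycle genes left out of clustering.

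Of the endothelial calls, 1 member was lower relative to the median of all genes (median -0.082) and by the mean of per-cell CPM (median -0.034), and 2 were higher and 4 lower in thinned cells (median -0.026). At 2-fold, 0 were higher and 0 lower. In cells with at least 3 members 0 were higher and 5 lower, beside 7.42% and 19.3% of all genes. In cells with fewer than 3 members 14 of 32 were higher and 0 lower, beside 8.52% and 21.1%, and the median reversed to 0.52; those cells were chosen by the members themselves. The shares at equal sub-cluster makeup were 39.8% and 37.2% at a coarser sub-clustering, 56.3% and 53.5% at 5000 UMIs, and 32.7% and 30.9% with further cycle genes left out. These rested on 290 control and 894 Alk1 ECKO cells, 271 and 428 cells, and 270 and 83 cells, in that order. The cause of these moves was not tested. No paired analysis was possible because each genotype has 1 library. The 11 control mural cells and 50 control microglia are limited by their number, and rods by depth, with 1430 of 2474 control cells under 3000 UMIs.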
